A study of Mus musculus with 9 samples.

Results

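The cytochrome P450 genes were taken as every row of the deposited protein-coding gene table whose symbol is Cyp followed by a family number, a subfamily letter and a gene number. The rule uses names only and found 99 of 22053 rows, each with its own symbol. One pseudogene-like symbol, Cyp2d37-ps, is among them, and the sterol demethylase Cyp51 is not, because its symbol has no subfamily letter. Family 2 had 49 members, family 4 had 20, family 3 had 9 and family 1 had 3. The other 18 belonged to families 7, 8, 11, 17, 19, 20, 21, 24, 26, 27, 39 and 46.

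RNA was sequenced from 9 mouse tumours in 3 groups of 3. The liver metastases (metastases 1, 2 and 3) came from the cell line N134-RHAMMB after injection into the tail vein. The N134-RHAMMB tumours (1, 2 and 4) came from the same line injected under the skin, and the N134 tumours (1, 2 and 3) from the line N134 at that same site. N134 is a line of mouse pancreatic neuroendocrine tumour cells, and its partner carries the name of RHAMMB, a form of the hyaluronan receptor RHAMM. All hosts were NSG mice, NOD.Cg-PrkdcscidIl2rgtm1Wjl/SzJ, which carry Prkdc scid and an Il2rg null allele and so have no mature lymphocytes or natural killer cells but keep myeloid cells. The age and sex of the hosts, the time of harvest, the promoter driving RHAMMB and whether either line is 1 clone are not stated in the labels used here. The line is the same in metastases and N134-RHAMMB tumours, while site and route of injection differ together and cannot be told apart. Against N134 tumours, the line differs as well.

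Cytochromes P450 are haem enzymes that insert an oxygen atom into small molecules. Those of the endoplasmic reticulum take electrons from P450 oxidoreductase, and those of mitochondria from adrenodoxin. Families 1 to 3 hold most enzymes of drug and toxin metabolism and family 4 those of fatty acid omega-oxidation, whereas families 7, 8, 27, 39 and 46 act on cholesterol and bile acids and families 11, 17, 19 and 21 make steroid hormones. In mice the liver is the main site of the drug-metabolising and bile acid enzymes, many lie in tandem gene arrays, and several differ between the sexes.

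Values are FPKM, fragment counts divided by transcript length and by library size, so levels of different genes can be set side by side per length. Depth was estimated at 14.4 to 18.5 M fragments a library, so that a lone fragment on a 2 kb transcript stood for 0.0271 to 0.0347 FPKM. Endocrine markers were high in all 9 libraries, with the summed level of 10 genes at 42251 to 47424 FPKM in metastases, 30938 to 36624 in N134-RHAMMB tumours, and N134 tumours had 37260 to 41188. The 15 hepatocyte markers summed to 4248 to 4383 FPKM in metastases, 358 to 467 in N134-RHAMMB tumours, and N134 tumours had 393 to 478, and all 15 stood at 1 FPKM or more in every metastasis. Albumin (Alb) had 1504, 1410.4 and 1609 FPKM in metastases 1, 2 and 3 and at most 1.60 FPKM in any subcutaneous tumour, where transthyretin (Ttr), which islet cells also make, gave most of the hepatocyte sum. The metastasis libraries held endocrine and hepatocyte transcripts together, and N134-RHAMMB tumours 2 and 4 also held skeletal muscle transcripts (Ckm 10.2 and 16.0 FPKM, against 0 in N134-RHAMMB tumour 1 and at most 0.0582 in N134 tumours).

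The summed level of the 99 genes was 737, 771 and 952 FPKM in metastases 1, 2 and 3, against 66.5, 58.9 and 69.2 in N134-RHAMMB tumours 1, 2 and 4 and 64.3, 57.4 and 53.8 in N134 tumours 1, 2 and 3. That was 0.165% to 0.205% of all summed FPKM in metastases, 0.0135% to 0.0154% in N134-RHAMMB tumours and between 0.0121% and 0.0138% in N134 tumours, and the metastases did not overlap with either tumour group. In metastases 38 to 44 members reached 1 FPKM and 16 to 20 reached 10 FPKM. In N134-RHAMMB tumours 12 to 16 members reached 1 FPKM and in N134 tumours 14 to 17 did, and in each of the 6 subcutaneous libraries the only member at 10 FPKM was Cyp20a1. The levels in metastases were concentrated: Cyp2e1 and Cyp3a11 made up 40.9% of their P450 FPKM, the top 5 members 58.8% and the top 10 members 76.0%.

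By group means, 18 members reached 1 FPKM in at least 1 subcutaneous group, 25 reached it only in metastases, 45 stayed under 1 FPKM in every group and 11 were listed at 0 in all 9 libraries. The last were Cyp11b1, Cyp11b2, Cyp2b23, Cyp2d34, Cyp2j7, Cyp2j8, Cyp2t4, Cyp2w1, Cyp3a41a, Cyp3a41b and Cyp4a29. In all 25 members that reached 1 FPKM only in metastases, every metastasis lay above every subcutaneous tumour, a separation that the way they were grouped partly sets, and 8 of the 25 were listed at 0 in all 6 tumours. Of the 99 members, 37 passed the filter for testing, 1 FPKM in at least 3 libraries, and 62 did not. Only 16 of the 37 would have passed on the tumours alone, so the other 21 had to be higher in metastases to be tested at all, and their calls are read as description.

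**Figure D1:**
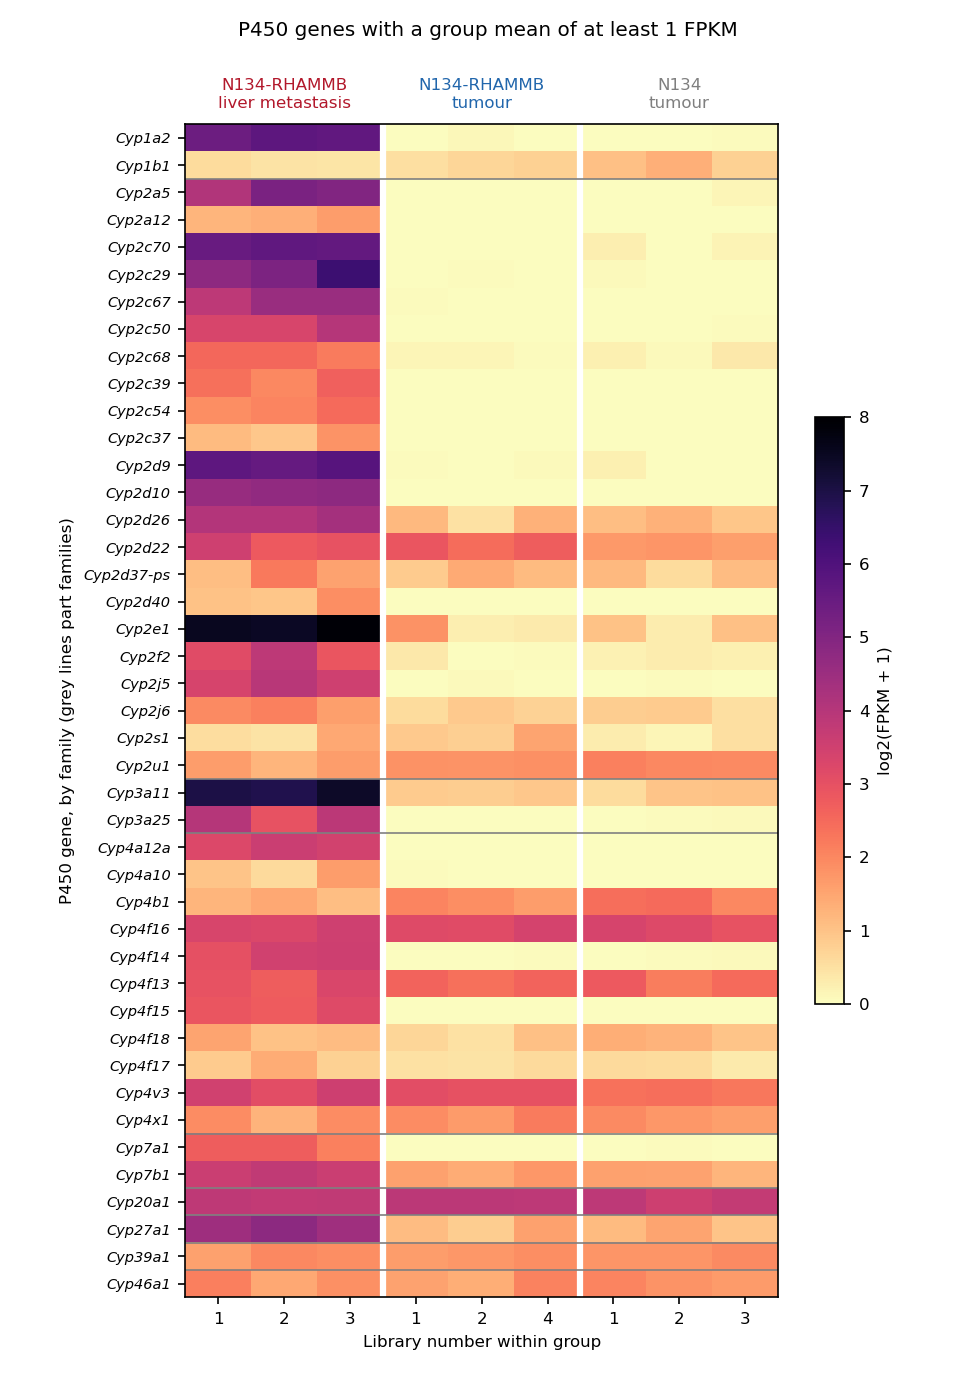
Level of the members with a group mean of at least 1 FPKM, as log2(FPKM + 1) in colour, with genes down the page by family (grey lines) and the 9 libraries across it, metastases at the left, then N134-RHAMMB tumours and N134 tumours. Rows such as Cyp1a2, Cyp2c70 and Cyp2d9 are dark in metastases and near 0 in all 6 tumours, and others, such as Cyp4f17 and Cyp4a10, are pale throughout. Cyp20a1, Cyp4f16 and Cyp4f13 stand at similar levels in all groups.

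Metastases were set against N134-RHAMMB tumours to ask what differs between the same line in liver and under the skin. With limma across 12854 genes, 25 of the 37 tested members were higher in metastases, 0 were lower and 12 were not called at adjusted p below 0.05. Over all tested genes 5.04% were called higher and 1.52% lower. At unadjusted p below 0.05, 28 members were higher and 1 was lower, against 2142 of 12854 genes in either direction. The count of lower members was 0 under each alternative run except library weights, which gave 1 (Cyp4b1). Library weights called 7.28% of all genes lower, with 27 members and 7.89% of all genes higher. With no filter, 36 of 99 members were higher, against 3.3% of all genes, and the median log2 difference was 0.21 over the 99 members and 0.00 over all genes. Of the 16 members that pass the filter on the tumours alone, 4 were higher (Cyp27a1, Cyp2d26, Cyp2e1 and Cyp7b1). The other 21 higher members passed only through the metastases. Their p-values below, for Cyp1a2, Cyp2c29, Cyp2d9, Cyp2j6, Cyp3a11, Cyp4f14 and Cyp7a1, are read as description. When all genes were instead filtered on a mean of 1 FPKM over the 6 tumours, which Cyp2e1 fails, 3 of 14 members were higher, against 1.78% of all genes. With a pseudocount of 0.1 in place of 1, members near 0 in the tumours gave larger differences, for example 8.63 for Cyp1a2. In bulk tissue a smaller number of cells of one kind and less RNA per cell cannot be told apart.

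In family 1, Cyp1a2, which oxidises caffeine and aromatic amines in hepatocytes, had 41.8, 52.8 and 48.8 FPKM in metastases, against 0, 0.0754 and 0 in N134-RHAMMB tumours and 0, 0 and 0.0366 in N134 tumours. The log2 difference between metastases and N134-RHAMMB tumours was 5.57 (SE 0.14, limma adjusted p = 2.33e-09), and the groups did not overlap. Cyp1a2 was tested only through its level in metastases. Its neighbour Cyp1a1, the classical target of the aryl hydrocarbon receptor, stayed at 0.167, 0.0221 and 0.117 FPKM in metastases and at most 0.0269 FPKM in the tumours, and was not tested. Cyp1b1, an oestrogen hydroxylase expressed mostly outside the liver, had a lower mean in metastases than in either tumour group. Its levels were 0.495, 0.381 and 0.337 FPKM in metastases, 0.423, 0.606 and 0.699 in N134-RHAMMB tumours and 1.08, 1.52 and 0.703 in N134 tumours. The metastases overlapped with N134-RHAMMB tumours and lay below every N134 tumour. Cyp1b1 did not pass the filter. The summed fibroblast markers were 171 to 390 FPKM in metastases, 272 to 471 in N134-RHAMMB tumours, and N134 tumours had 592 to 845, and their part in the Cyp1b1 levels was not tested.

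In family 2, 16 of 19 tested members were higher in metastases than in N134-RHAMMB tumours, against 5.04% of all tested genes. Of these 16, only Cyp2d26 and Cyp2e1 pass the filter on the tumours alone. The others had to be higher in metastases to be tested. Cyp2e1 (ENSMUSG00000025479, chr7:140763739-140774987 in GRCm38), which oxidises ethanol, acetone and paracetamol, was the most abundant member, with 183, 174 and 239 FPKM in metastases, against 2.55, 0.203 and 0.264 in N134-RHAMMB tumours and 1.01, 0.232 and 1.06 in N134 tumours. Its log2 difference against N134-RHAMMB tumours was 6.82 (SE 0.38, limma adjusted p = 4.85e-07), and it was 6.06 with library weights, 8.21 with a pseudocount of 0.1 and 5.80 against N134-RHAMMB tumour 1 alone, which is above the other 2. Among the tumours it was highest in N134-RHAMMB tumour 1, which also had the highest level of the adipocyte gene Adipoq: 10.6 FPKM, against 1.75 and 0.822 in N134-RHAMMB tumours 2 and 4 and 1.59 to 5.26 in N134 tumours. Adipocytes express Cyp2e1 as well, and their part in the tumour values was not tested. The metastases had 0 FPKM of Adipoq.

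The Cyp2c subfamily, the largest with 15 members, summed to 108, 129 and 185 FPKM in metastases. Cyp2c29, an arachidonic acid epoxygenase of the mouse liver, had 26.4, 33.5 and 81.4 FPKM in metastases and at most 0.0643 FPKM in any tumour (log2 difference against N134-RHAMMB tumours 5.39, SE 0.33, limma adjusted p = 1.04e-06). Metastasis 3 was far above the other metastases for this gene. Cyp2c67 had 13.5, 22.5 and 22.2 FPKM in metastases, against 0.0341, 0 and 0 in N134-RHAMMB tumours and 0 in N134 tumours, with a log2 difference of 4.30 from N134-RHAMMB tumours. Cyp2c50, Cyp2c39 and Cyp2c54 averaged 11.1, 4.20 and 3.47 FPKM in metastases, and each was listed at 0 in the 3 N134-RHAMMB tumours. Cyp2c68 was the only member of the subfamily above 0 in all 6 tumours, at 0.0368 to 0.276 FPKM, against 4.83, 4.86 and 3.58 FPKM in metastases. The other 8 members failed the filter, among them Cyp2c37, with 1.19, 0.915 and 2.47 FPKM in metastases and 0 in every tumour.

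Of the Cyp2d genes, the subfamily of the human debrisoquine hydroxylase, Cyp2d9 had 51.4, 46.5 and 57.0 FPKM in metastases and at most 0.166 FPKM in any tumour (log2 difference against N134-RHAMMB tumours 5.67, SE 0.15, limma adjusted p = 2.33e-09). Cyp2d10 had 23.0, 25.1 and 26.3 FPKM in metastases and was listed at 0 in all 6 tumours. Cyp2d26 differed from them in being present in the tumours too, with 15.5, 15.6 and 19.1 FPKM in metastases, against 1.24, 0.395 and 1.47 in N134-RHAMMB tumours and 1.10, 1.44 and 0.939 in N134 tumours (log2 difference against N134-RHAMMB tumours 3.16, SE 0.22). Cyp2d40 had 1.03, 0.945 and 2.70 FPKM in metastases and 0 in every tumour, and was not tested. Cyp2d37-ps had 1.10, 3.70 and 1.95 FPKM in metastases, 0.814, 1.67 and 1.23 in N134-RHAMMB tumours and 1.24, 0.481 and 1.15 in N134 tumours, and its groups overlapped.

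In the Cyp2a subfamily, Cyp2a5, the mouse coumarin hydroxylase, had 16.0, 33.9 and 31.3 FPKM in metastases, 0 in all N134-RHAMMB tumours and 0, 0 and 0.0996 FPKM in N134 tumours. Cyp2a12, a steroid hydroxylase, had 1.37, 1.49 and 2.11 FPKM in metastases and 0 in every tumour, and Cyp2a22 had 0.309, 0.088 and 1.02 FPKM in metastases and 0 in every tumour. The Cyp2b genes, targets of the constitutive androstane receptor in liver, stayed low: Cyp2b10 had 0.950, 0.164 and 0.467 FPKM in metastases, up to 0.327 in N134-RHAMMB tumours and up to 0.180 in N134 tumours. Cyp2f2, which activates naphthalene and is known from lung club cells and periportal hepatocytes, had 7.73, 13.5 and 6.43 FPKM in metastases and at most 0.279 FPKM in the tumours. Among the fatty acid epoxygenases of the Cyp2j subfamily, Cyp2j5 had 9.36, 14.3 and 10.5 FPKM in metastases and at most 0.0481 in the tumours, and Cyp2j6 had 2.90, 3.36 and 2.03 FPKM in metastases, against 0.507, 0.845 and 0.657 in N134-RHAMMB tumours and 0.765, 0.819 and 0.426 in N134 tumours. Cyp2j6 had the smallest called difference, 1.16 on the log2 scale (SE 0.18, limma adjusted p = 0.00217). Cyp2j9 averaged 0.381 FPKM in metastases and was not tested, and Cyp2g1, an olfactory enzyme, was at 0 in metastases.

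In family 3, Cyp3a11 (ENSMUSG00000056035, chr5:145854426-145879964), the main drug-metabolising enzyme of its subfamily in mouse liver and a target of the pregnane X receptor, had 127, 118 and 165 FPKM in metastases, against 0.796, 0.764 and 0.885 in N134-RHAMMB tumours and 0.493, 0.992 and 1.04 in N134 tumours. The log2 difference against N134-RHAMMB tumours was 6.23 (SE 0.18, limma adjusted p = 3.04e-09). Cyp3a11 was tested only through its level in metastases. Its tumour values were low but above 0 in all 6 libraries, unlike those of Cyp3a25, which had 15.2, 6.80 and 13.9 FPKM in metastases, 0 in all N134-RHAMMB tumours and 0, 0.0288 and 0.0614 in N134 tumours. Cyp3a59 had 0.754, 0.444 and 1.51 FPKM in metastases and 0 in the tumours, and Cyp3a13 had 0.778, 0.797 and 0.731 FPKM in metastases and at most 0.0222 in the tumours. Neither was tested.

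In family 4, which omega-oxidises fatty acids and eicosanoids, 3 of 9 tested members were higher in metastases, against 5.04% of all tested genes. All 3 (Cyp4a12a, Cyp4f14 and Cyp4f15) passed the filter only through the metastases, so they had to be higher there to be tested. Cyp4a12a had 8.48, 11.3 and 10.05 FPKM in metastases and Cyp4f15 had 6.46, 5.80 and 7.92 FPKM, and both were listed at 0 in all 6 tumours. Cyp4f14, a leukotriene hydroxylase, had 7.16, 10.2 and 10.7 FPKM in metastases and at most 0.0670 FPKM in the tumours (log2 difference against N134-RHAMMB tumours 3.34, SE 0.17, limma adjusted p = 1.85e-07). The targets of the fatty acid receptor PPAR alpha were low in metastases, with 0.995, 0.541 and 2.14 FPKM for Cyp4a10 and 0.557, 0.562 and 1.36 FPKM for Cyp4a14, against at most 0.0312 FPKM for Cyp4a10 and 0 for Cyp4a14 in the tumours, and neither passed the filter. The other 6 tested members of the family (Cyp4b1, Cyp4f13, Cyp4f16, Cyp4f18, Cyp4v3 and Cyp4x1) were present in the tumours and were not called.

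The bile acid enzymes were examined as a list of 7 members, of which 6 were tested and 4 were higher in metastases than in N134-RHAMMB tumours. Over all tested genes 5.04% were called higher. Of the 4, Cyp7a1 and Cyp2c70 passed the filter only through the metastases. Cyp7a1 (ENSMUSG00000028240, chr4:6265612-6275633), the rate-limiting enzyme of bile acid synthesis, had 5.69, 5.62 and 3.35 FPKM in metastases, against 0.0145, 0.0143 and 0 in N134-RHAMMB tumours and 0, 0.0272 and 0 in N134 tumours, which is at or under the value of 1 fragment in 2 kb. The log2 difference against N134-RHAMMB tumours was 2.52 (SE 0.18, limma adjusted p = 4.09e-06). Cyp27a1, the mitochondrial sterol side-chain hydroxylase, had 20.9, 26.8 and 20.5 FPKM in metastases, against 1.16, 0.780 and 1.96 in N134-RHAMMB tumours and 1.22, 1.87 and 0.990 in N134 tumours (log2 difference 3.39, SE 0.22, limma adjusted p = 1.69e-06). Cyp7b1, the oxysterol hydroxylase of the alternative pathway, had 11.1, 12.8 and 11.3 FPKM in metastases, against 2.02, 1.60 and 2.30 in N134-RHAMMB tumours and 1.96, 1.92 and 1.37 in N134 tumours (log2 difference 2.1, SE 0.16, limma adjusted p = 5.61e-06). For these 3 genes no tumour reached the level of any metastasis.

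Cyp2c70, which makes the muricholic acids of mice, had 44.7, 50.2 and 47.5 FPKM in metastases, 0 in all N134-RHAMMB tumours and 0.199, 0 and 0.132 FPKM in N134 tumours. It was the bile acid gene with the highest level per length in metastases. Cyp8b1, the sterol hydroxylase needed for cholic acid, had only 0.0715, 0.860 and 0.650 FPKM in metastases and 0 in every tumour, and was not tested. Cyp39a1, an oxysterol hydroxylase, and Cyp46a1 did not follow the others. Cyp39a1 had 1.96, 2.99 and 2.72 FPKM in metastases, 2.1, 2.30 and 2.74 in N134-RHAMMB tumours and 2.43, 2.37 and 2.89 in N134 tumours. Cyp46a1, known as the cholesterol hydroxylase of neurons, had 3.42, 1.75 and 2.61 FPKM in metastases, 1.93, 1.54 and 3.18 in N134-RHAMMB tumours and 3.11, 2.46 and 2.18 in N134 tumours. Their log2 differences between metastases and N134-RHAMMB tumours were 0.07 (SE 0.17, limma adjusted p = 0.907) and 0.17 (SE 0.23, limma adjusted p = 0.822), and the 3 groups overlapped for both.

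**Figure D2:**
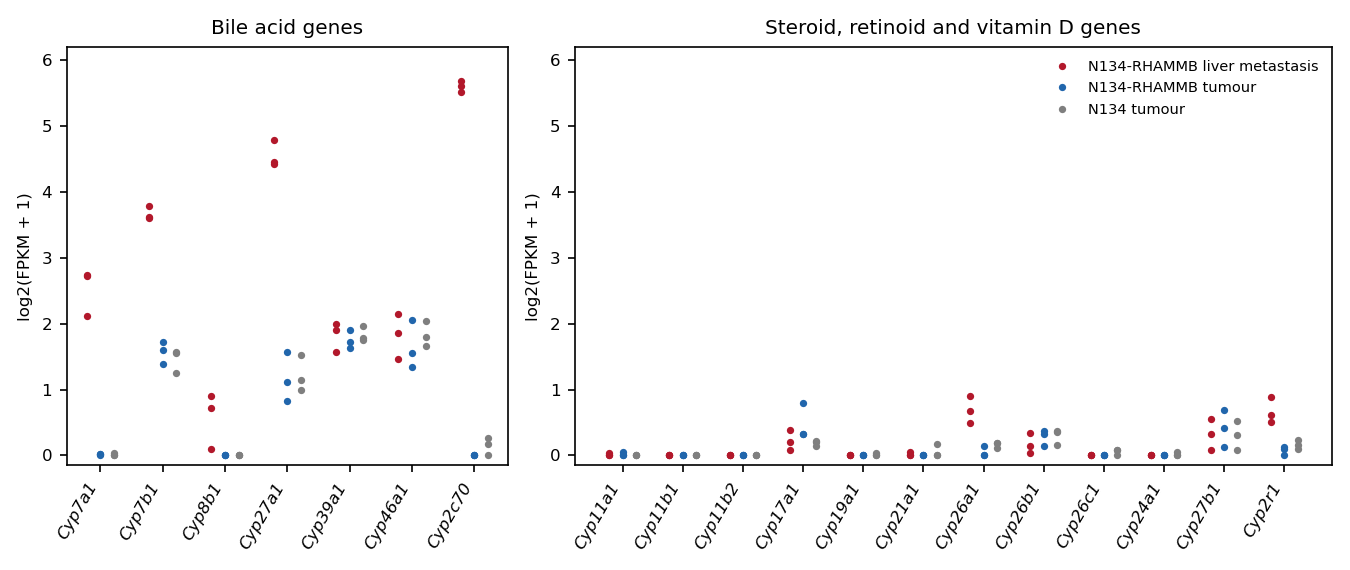
Level of the bile acid members (left) and of the steroid, retinoid and vitamin D members (right) as log2(FPKM + 1), with 1 point per library for metastases, N134-RHAMMB tumours and N134 tumours. Cyp2c70, Cyp27a1, Cyp7b1 and Cyp7a1 lie higher in metastases without overlap, Cyp39a1 and Cyp46a1 overlap across the groups, and every steroid, retinoid and vitamin D gene stays under 1 FPKM in all 9 libraries.

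The steroid hormone enzymes were close to 0 in all groups, and no member of that list, nor of the retinoid and vitamin D lists, reached 1 FPKM in any library, so none was tested. Cyp11b1 and Cyp11b2, the last enzymes of corticosterone and aldosterone synthesis, were listed at 0 throughout. The side-chain cleavage enzyme Cyp11a1 was above 0 only in metastasis 1 (0.0302 FPKM) and N134-RHAMMB tumour 1 (0.0320 FPKM), and aromatase (Cyp19a1) only in N134 tumour 1 (0.0255 FPKM). Cyp21a1, the steroid hydroxylase of the adrenal cortex, was above 0 only in metastasis 2 (0.0324 FPKM) and N134 tumour 2 (0.122 FPKM). Cyp17a1, the steroid hydroxylase and lyase, was above 0 everywhere, with 0.312, 0.0628 and 0.152 FPKM in metastases, 0.740, 0.254 and 0.247 in N134-RHAMMB tumours and 0.157, 0.104 and 0.169 in N134 tumours. Of the enzymes that clear retinoic acid, Cyp26a1 had 0.878, 0.402 and 0.60 FPKM in metastases and at most 0.140 in the tumours, Cyp26b1 had 0.0306 to 0.299 FPKM over all libraries and Cyp26c1 at most 0.0596. Of the vitamin D enzymes, Cyp2r1, which makes the circulating form, had 0.523, 0.857 and 0.422 FPKM in metastases and at most 0.177 in the tumours, Cyp27b1, which activates it, had 0.0562 to 0.609 FPKM over all libraries, and Cyp24a1, which degrades it, was above 0 only in N134 tumour 2 (0.0368 FPKM).

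Members whose liver expression differs between the sexes in mice were listed apart, since the sex of the hosts is not given. The male-biased list (Cyp2d9, Cyp4a12a, Cyp4a12b, Cyp2u1 and Cyp7b1) summed to 72.0 to 80.8 FPKM in metastases, 4.07 to 5.0 in N134-RHAMMB tumours, and N134 tumours had 4.21 to 5.5. Of its 4 tested members, 3 were higher in metastases than in N134-RHAMMB tumours (Cyp2d9, Cyp4a12a and Cyp7b1), against 5.04% of all tested genes. Cyp2d9 and Cyp4a12a passed the filter only through the metastases. The female-biased list of 11 members summed to 0.884 to 2.77 FPKM in metastases, 0.247 to 0.740 in N134-RHAMMB tumours, and N134 tumours had 0.135 to 0.204. Most of the tumour sums was Cyp17a1, and none of the 11 was tested. Within it, Cyp3a41a and Cyp3a41b were listed at 0 in all libraries, Cyp3a16 and Cyp3a44 were above 0 only in metastasis 1 (0.0348 and 0.0302 FPKM), Cyp2c40 and Cyp2c69 were at 0 in metastases, and Cyp2b13 had at most 0.0669 FPKM. Cyp2b9 had 0.102, 0.188 and 0.893 FPKM, Cyp2a4 had 0.114, 0.0705 and 0.296 FPKM and Cyp4a14 had up to 1.36 FPKM in metastases, and all 3 were at 0 in the tumours. Cyp4a12b had 0.246, 0.152 and 0.344 FPKM in metastases and at most 0.0285 in the tumours. The Y-linked gene Ddx3y was present in every library, at 3.48 to 3.81 FPKM in metastases, 1.79 to 2.40 in N134-RHAMMB tumours, and N134 tumours had 2.81 to 3.38, and how much of it came from host or tumour cells was not tested.

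Many members lie in tandem arrays, and the level in metastases differed widely between neighbours. On chromosome 5, Cyp3a11 averaged 137 FPKM in metastases and the adjacent Cyp3a25 11.95 FPKM, while Cyp3a44 on its other side averaged 0.0101 FPKM and Cyp3a41a and Cyp3a41b were at 0. In the array of 9 Cyp2d genes on chromosome 15, Cyp2d9 averaged 51.6 FPKM and Cyp2d10 24.8 FPKM beside Cyp2d11 at 0.0146 and Cyp2d12 at 0.0270 FPKM. The array of 14 Cyp2c genes on chromosome 19 ran from 0 FPKM for Cyp2c66, Cyp2c40 and Cyp2c69 to 47.5 FPKM for Cyp2c70 and 47.1 FPKM for Cyp2c29. On chromosome 17, Cyp4f14 and Cyp4f15, absent or nearly so from the tumours, share an array of 8 genes with Cyp4f13 and Cyp4f16, which were present in every library.

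**Figure D3:**
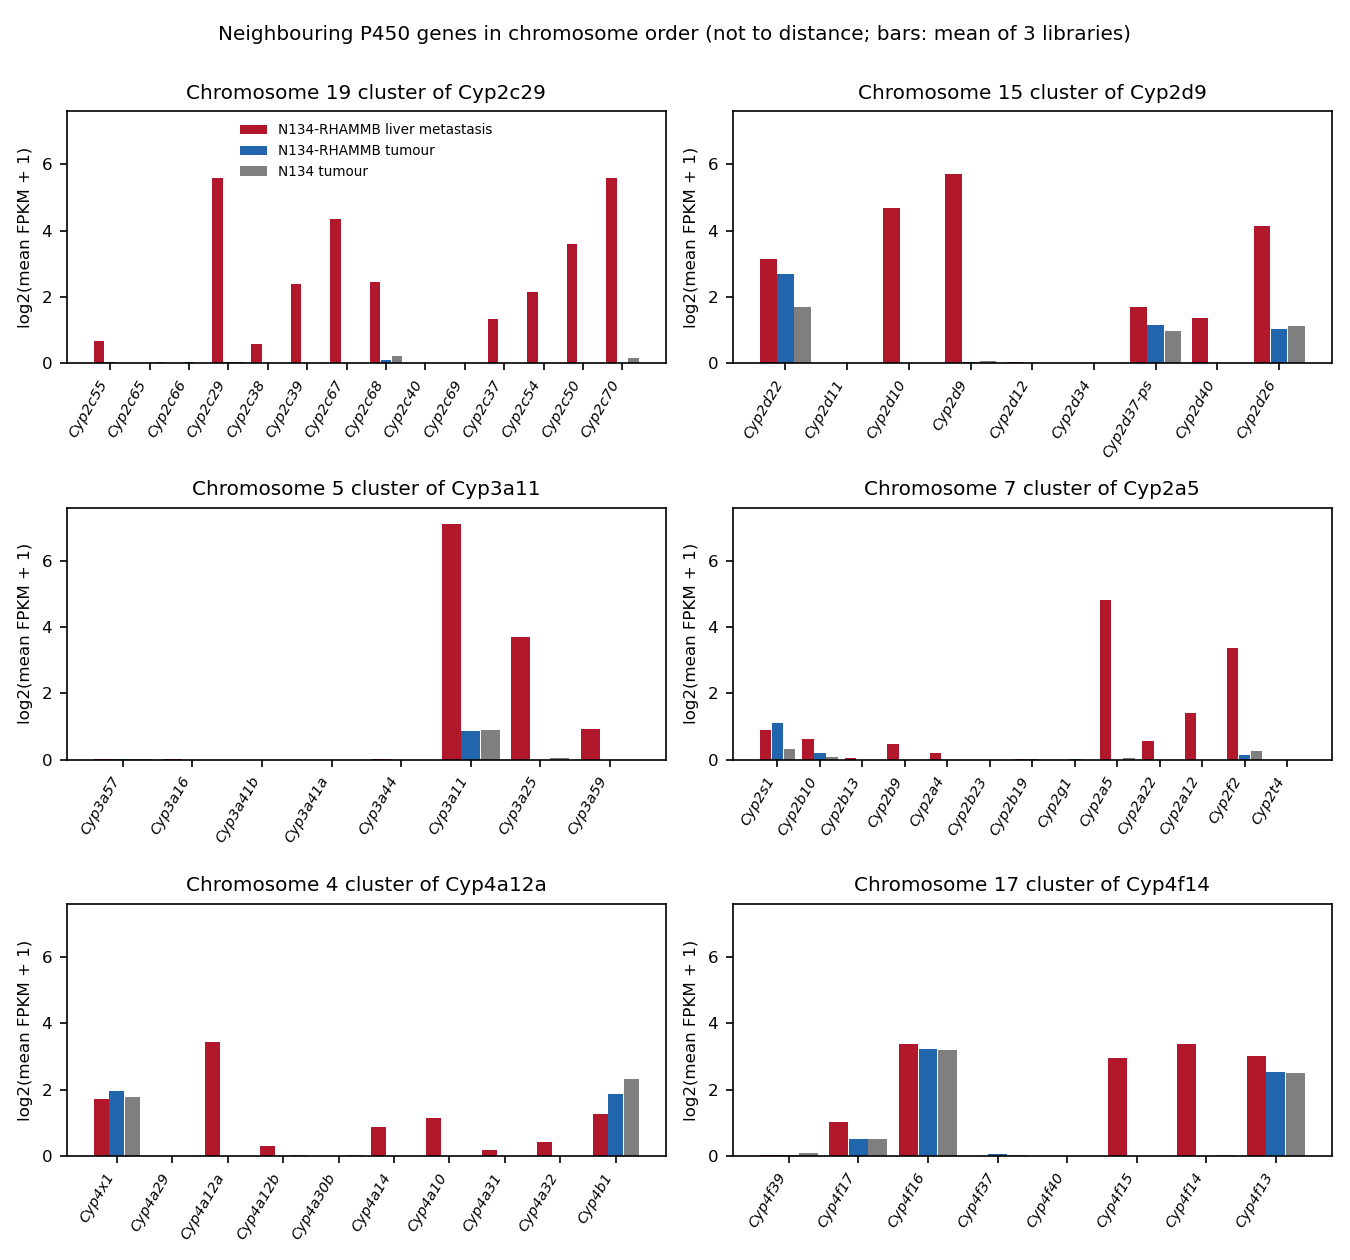
Members of 6 tandem arrays in their order along the chromosome, not to distance, with bars for log2(mean FPKM + 1) over the 3 libraries of metastases, N134-RHAMMB tumours and N134 tumours. Within an array some members stand high in metastases while neighbours stay near 0, as Cyp3a11 at 137 FPKM does beside Cyp3a44 at 0.0101 FPKM.

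Neighbours can also be near-identical in sequence, which bears on how far their values are separate. Among 279 pairs of members of the same subfamily, 23 had open reading frames at least 95% identical, and these pairs held 26 of the 98 members with a reading frame in GENCODE M21. The values of members of such pairs are uncertain, because the sources used here do not state how fragments matching 2 genes were counted. Cyp3a11 was 95.2% identical to Cyp3a41a, Cyp2a5 was 98.5% identical to Cyp2a4, Cyp4a12a was 98.5% identical to Cyp4a12b and Cyp3a25 was 97.5% identical to Cyp3a59. Cyp2c67 and Cyp2c68 (97.2%), Cyp2c37 and Cyp2c50 (96.1%), Cyp2c50 and Cyp2c54 (95.2%), Cyp2a12 and Cyp2a22 (96.96%), Cyp4a10 and Cyp4a32 (97.2%) and Cyp4f16 and Cyp4f37 (95.6%) are other pairs with a member named here. Cyp2e1, Cyp1a2, Cyp2d9, Cyp2c70, Cyp7a1, Cyp27a1 and Cyp7b1 are in no such pair.

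The 250 bases before the start of 4 genes are shown, from RefSeq on GRCm38.p6, because they set the most abundant members (Cyp2e1 and Cyp3a11) beside a silent neighbour (Cyp3a44) and a member that was not called between the groups (Cyp20a1). Each is written 5′ to 3′ along the gene, and capitals mark matches to the TATA box letters TATAAA and to the nuclear receptor core motifs AGGTCA and, in a variant, AAAGTCC. RefSeq starts can differ from the gene starts of the deposited table.
Cyp2e1, chr7:140763569-140763818, plus strand: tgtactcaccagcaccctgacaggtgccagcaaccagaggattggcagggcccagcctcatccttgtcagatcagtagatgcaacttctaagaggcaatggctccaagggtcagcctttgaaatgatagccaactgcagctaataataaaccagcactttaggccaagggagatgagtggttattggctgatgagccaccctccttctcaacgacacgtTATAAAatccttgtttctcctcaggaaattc
Cyp3a11, chr5:145879855-145880104, minus strand: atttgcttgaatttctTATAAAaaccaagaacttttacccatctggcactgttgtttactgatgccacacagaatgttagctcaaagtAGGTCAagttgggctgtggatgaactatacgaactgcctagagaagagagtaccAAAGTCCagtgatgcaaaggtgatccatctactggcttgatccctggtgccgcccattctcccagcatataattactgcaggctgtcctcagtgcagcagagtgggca
Cyp3a44, chr5:145805875-145806124, minus strand: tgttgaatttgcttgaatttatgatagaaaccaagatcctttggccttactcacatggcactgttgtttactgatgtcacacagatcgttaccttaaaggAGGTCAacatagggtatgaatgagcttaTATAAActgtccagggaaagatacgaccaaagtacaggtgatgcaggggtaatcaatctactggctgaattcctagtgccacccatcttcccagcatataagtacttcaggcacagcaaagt
Cyp20a1, chr1:60343050-60343299, plus strand: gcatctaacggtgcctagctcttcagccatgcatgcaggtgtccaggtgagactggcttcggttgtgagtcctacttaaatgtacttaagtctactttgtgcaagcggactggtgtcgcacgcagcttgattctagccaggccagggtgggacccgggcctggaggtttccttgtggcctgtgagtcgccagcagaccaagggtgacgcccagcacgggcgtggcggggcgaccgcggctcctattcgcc

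The match in Cyp2e1 began 31 bases before the start. In Cyp3a11 they began 234 bases (TATAAA), 162 bases (AGGTCA) and 108 bases (AAAGTCC) before it, and the silent Cyp3a44 held AGGTCA 150 bases and TATAAA 122 bases before it. Cyp20a1 held none of these letters and 15 CpG dinucleotides, against 2 in Cyp2e1, 2 in Cyp3a11 and 2 in Cyp3a44. RefSeq promoters of 300 bases, 250 before and 50 after the start, were found for 75 of the 99 symbols, 85 promoters in all, and were searched on both strands. AGGTCA was in 10 of 25 promoters of members at 1 FPKM only in metastases, in 0 of 12 promoters of members at 1 FPKM in a tumour group and in 16.3% of all 32851 promoters. TATAAA was in 12 of 25, in 2 of 12 and in 13.6% of the same sets. AAAGTCC was in 5 of 25, in 1 of 12 and in 4.21%. The letters GTTAAT, also searched, were in 3 of 25, in 1 of 12 and in 7.10%. The median number of CpG dinucleotides was 2, 8 and 7. It was 3 for members under 1 FPKM in every group and 2 for members at 0 in all libraries. Over all 85 member promoters, AGGTCA was in 22, TATAAA in 34, AAAGTCC in 17 and GTTAAT in 11. These letters were therefore not confined to members that reached 1 FPKM. These are descriptions of letters in a window, and some promoters belong to the same gene or to near-identical copies.

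The metastases also differed among themselves. Of the 25 members at 1 FPKM only in metastases, 2 were highest in metastasis 1, 10 in metastasis 2 and 13 in metastasis 3, and 17 differed by less than 2 times between the highest and the lowest metastasis. The median of that ratio was 1.67, against 1.20 for the 15 hepatocyte markers. It was smallest for Cyp2c70 at 1.12 and Cyp2d10 at 1.14, and largest for Cyp4a10 at 3.96 and Cyp2c29 at 3.09. The sets differ in level: the hepatocyte markers had a median of 97.3 to 145 FPKM per metastasis, and Cyp4a10 had 0.541 to 2.14 FPKM. How far low levels widened the ratios was not tested. Per 1000 FPKM of Alb, Cyp2d9 stood at 34.2, 33.0 and 35.5 in metastases 1, 2 and 3, Cyp3a11 at 84.2, 83.4 and 103, and Cyp2c29 at 17.5, 23.7 and 50.6. Cyp2f2, at 5.14, 9.59 and 4.0, was highest in metastasis 2, and Cyp3a25, at 10.1, 4.82 and 8.64, was lowest there. The genes whose protein lies around the central vein of the liver lobule were Cyp2e1, Cyp1a2, Cyp2c29, Cyp2c50, Cyp2a5, Cyp27a1 and Cyp7a1. All 7 were tested and higher in metastases than in N134-RHAMMB tumours, against 5.04% of all tested genes. However, 5 of them were tested only through their level in metastases. Of the periportal genes, Cyp2f2, also tested only through the metastases, was higher and Cyp8b1 was not tested.

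**Figure D4:**
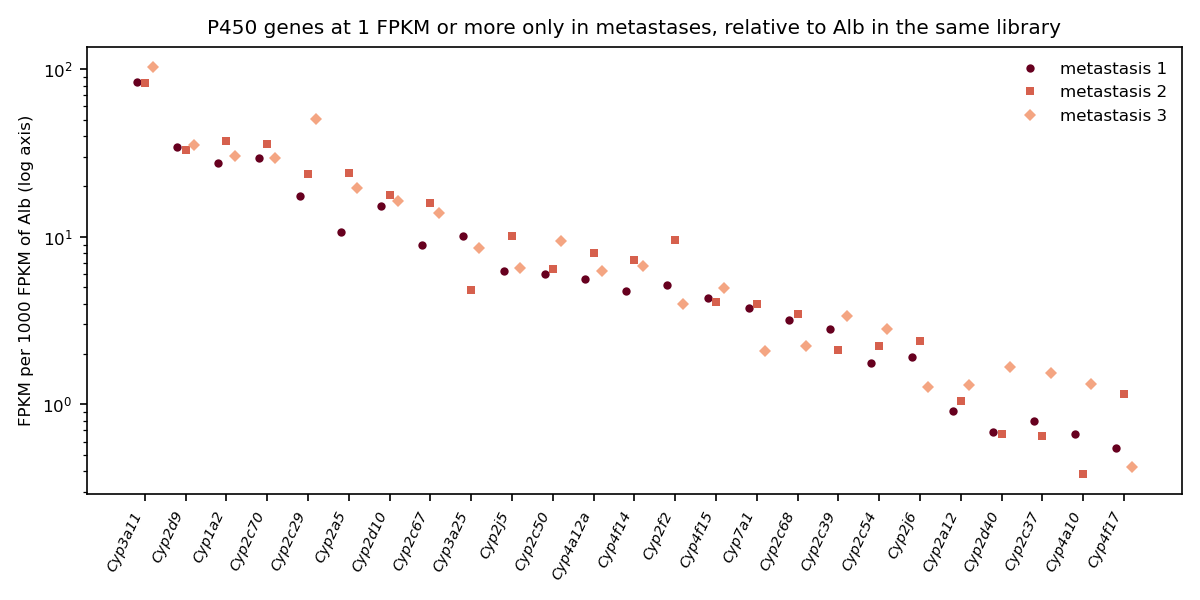
Level of the 25 members at 1 FPKM only in metastases, per 1000 FPKM of Alb in the same library, on a log axis with 1 point per metastasis and genes ordered by their mean FPKM. Cyp2d9 and Cyp2d10 keep close to 1 value, Cyp2c29 stands at 17.5 in metastasis 1 and 50.6 in metastasis 3, and Cyp2f2 is highest and Cyp3a25 lowest in metastasis 2.

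N134-RHAMMB tumours were set against N134 tumours to ask what differs between the lines at 1 site. In limma 0 of the 37 tested members were higher and 0 lower at adjusted p below 0.05, against 0.0778% of all tested genes called higher and 0.117% called lower. At unadjusted p below 0.05, 2 members were higher (Cyp2d22 and Cyp4v3) and 2 were lower (Cyp4b1 and Cyp4f18). These 4 of 37 members stand against 1648 of 12854 genes in either direction, so their share was no larger than over all genes. Library weights gave 2 higher and 1 lower, but called 11.9% of all genes higher and 8.57% lower. The fit of the 2 groups alone gave 1 higher, with 0.739% of all genes, and leaving out metastasis 2, which enters through the shared spread, gave 2 higher, with 0.817% of all genes. The other alternatives gave 0 in both directions.

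Cyp2d22 (ENSMUSG00000061740, chr15:82370528-82380260), a Cyp2d enzyme also expressed outside the liver, had 6.4, 4.43 and 5.60 FPKM in N134-RHAMMB tumours, against 2.23, 2.37 and 2.04 FPKM in N134 tumours, and 10.5, 6.01 and 6.82 FPKM in metastases. The tumour groups did not overlap, and the log2 difference of N134-RHAMMB from N134 tumours was 1.0 (SE 0.20, limma adjusted p = 0.105; 0.00114 with library weights, 0.0314 with the 2 groups alone and 0.0339 without metastasis 2, and up to 1 over all alternatives). Each of these 3 settings also raised the calls over all genes, as given above. Cyp4v3 (ENSMUSG00000079057, chr8:45304944-45333216), the mouse counterpart of the human fatty acid hydroxylase CYP4V2 that is mutated in Bietti crystalline dystrophy, had 7.45, 6.91 and 6.92 FPKM in N134-RHAMMB tumours, against 4.14, 4.41 and 3.78 in N134 tumours, and 10.1, 7.53 and 10.6 in metastases. Its log2 difference between the tumour groups was 0.66 (SE 0.15, limma adjusted p = 0.137; 0.00171 with library weights and 0.0339 without metastasis 2, and up to 1 over all alternatives). Skeletal muscle markers summed to 10.97 FPKM in N134-RHAMMB tumour 1, to 132 in tumour 2 and to 155 in tumour 4, against 8.62 to 18.1 FPKM in N134 tumours, and their part in both genes was not tested. Between metastases and N134-RHAMMB tumours, Cyp2d22 overlapped and was not called (limma adjusted p = 0.35). Cyp4v3 did not overlap there, with a log2 difference of 0.35 (SE 0.15, limma adjusted p = 0.276; 0.0417 with library weights).

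Cyp4b1, an enzyme of lung known for activating plant toxins, had 3.10, 2.68 and 2.1 FPKM in N134-RHAMMB tumours, against 4.36, 4.62 and 2.93 in N134 tumours, and 1.34, 1.73 and 1.13 in metastases. The log2 difference of N134-RHAMMB from N134 tumours was -0.45 (SE 0.19, limma adjusted p = 0.365), and the tumour groups overlapped. Cyp4f18, which inactivates leukotriene in neutrophils, had 0.579, 0.411 and 1.05 FPKM in N134-RHAMMB tumours, 1.58, 1.40 and 0.961 in N134 tumours and 1.87, 1.02 and 1.14 in metastases, with a log2 difference of -0.47 between the tumour groups (SE 0.21, limma adjusted p = 0.372; 0.0391 with library weights). Its difference between metastases and N134-RHAMMB tumours was 0.48 (SE 0.21, limma adjusted p = 0.272; 0.0301 with library weights). The summed macrophage markers were 247 to 335 FPKM in N134-RHAMMB tumours, 332 to 567 in N134 tumours and 149 to 265 in metastases, and their part in the Cyp4f18 values was not tested. Cyp2s1, an epithelial P450, had 0.853, 0.724 and 1.87 FPKM in N134-RHAMMB tumours, against 0.218, 0.0920 and 0.420 in N134 tumours, and 0.476, 0.366 and 1.71 in metastases. Its tumour groups did not overlap, but it failed the filter.

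The members described next were called in none of the 3 comparisons in limma. Cyp20a1, an orphan P450 of unknown substrate, was the most abundant in the tumours, with 13.3, 12.6 and 12.8 FPKM in metastases, 14.0, 13.8 and 13.7 in N134-RHAMMB tumours and 13.5, 10.7 and 12.3 in N134 tumours. Cyp4f16 had 8.69 to 10.4 FPKM in metastases, 7.82 to 9.41 in N134-RHAMMB tumours, and N134 tumours had 6.71 to 9.25, and Cyp4f13 had 5.69 to 8.86, 4.26 to 5.06 and 3.52 to 5.90 FPKM in the same 3 groups. Cyp4x1, known from brain, had 2.76, 1.38 and 2.77 FPKM in metastases, 2.78, 2.21 and 3.59 in N134-RHAMMB tumours and 2.85, 2.36 and 2.04 in N134 tumours. Cyp2u1, a long-chain fatty acid hydroxylase of brain and thymus, had 2.12, 1.34 and 2.13 FPKM in metastases, 2.57, 2.46 and 2.65 in N134-RHAMMB tumours and 3.35, 2.99 and 2.84 in N134 tumours. The tumour groups did not overlap for Cyp20a1 or Cyp2u1, with log2 differences of 0.18 and -0.19. Every metastasis lay below every tumour for Cyp2u1 and below every N134-RHAMMB tumour for Cyp20a1, and above every N134-RHAMMB tumour for Cyp4f13, with log2 differences from N134-RHAMMB tumours of -0.33, -0.09 and 0.46 (limma adjusted p = 0.35, 0.807 and 0.271).

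**Figure D5:**
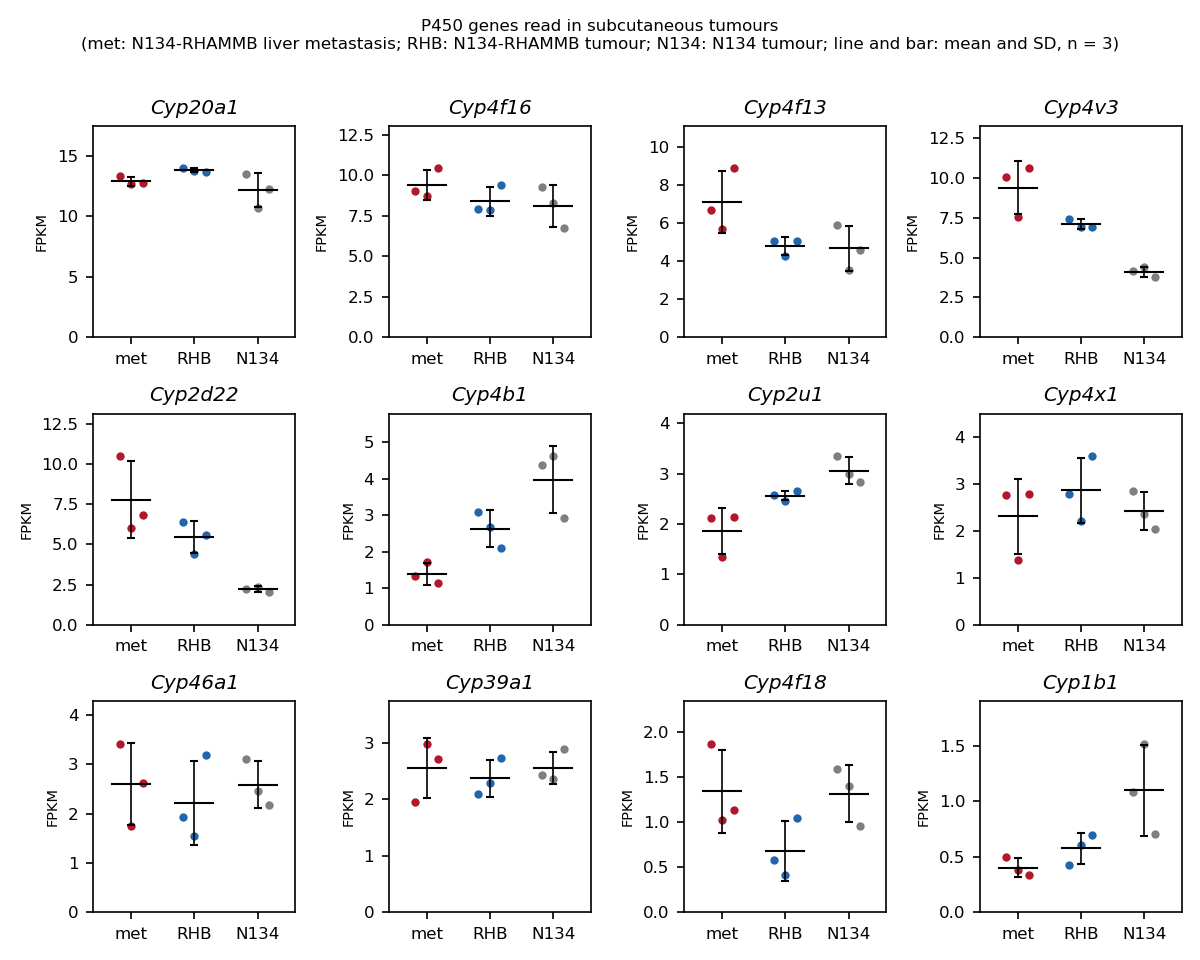
FPKM of 12 members that reached a mean of 1 FPKM in a subcutaneous group, 1 panel a gene, with 1 point per library and lines for the group mean and SD (n = 3), for metastases (met), N134-RHAMMB tumours (RHB) and N134 tumours from left to right. Cyp2d22 and Cyp4v3 are higher in N134-RHAMMB than in N134 tumours without overlap, and every metastasis is below every tumour for Cyp4b1.

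Metastases against N134 tumours, where line and site both differ, gave 27 members higher, 1 lower and 9 not called in limma, against 5.69% of all tested genes higher and 4.23% lower. Of these 27, 21 passed the filter only through the metastases, so they had to be higher there to be tested. Of the 16 members that pass on the tumours alone, 6 were higher. With no filter, 40 of 99 members were higher, against 3.73% of all genes. The comparison shares the metastases with the first and the N134 tumours with the second. Cyp2d22 was higher in metastases by 1.42 on the log2 scale (SE 0.20, limma adjusted p = 0.000954) and Cyp4v3 by 1.01 (SE 0.15, limma adjusted p = 0.00127), and neither group pair overlapped. Cyp4b1 fell by 1.04 on the log2 scale in metastases (SE 0.19, limma adjusted p = 0.00530). With genes filtered on a mean of 1 FPKM over the 6 tumours, 5 of 14 members were higher (Cyp27a1, Cyp2d26, Cyp7b1, Cyp2d22 and Cyp4v3), against 2.47% of all genes. The difference of Cyp2u1 was -0.51 (SE 0.16, limma adjusted p = 0.0756), and it was called lower with quantile normalization (adjusted p = 0.013) and with no intensity trend (0.045). The summed adipocyte markers were 13.7 to 19.3 FPKM in metastases, 30.7 to 92.6 in N134-RHAMMB tumours, and N134 tumours had 51.0 to 69.0, and the part of adipocytes and fibroblasts in the Cyp4b1 values was not tested.

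The electron and haem supply of these enzymes was measured through 9 genes, all present in tumours as well as in metastases. P450 oxidoreductase (Por) had 60.3, 40.1 and 45.2 FPKM in metastases, 49.4, 36.9 and 51.2 in N134-RHAMMB tumours and 47.9, 41.7 and 42.0 in N134 tumours, with a log2 difference of 0.07 between metastases and N134-RHAMMB tumours (SE 0.17, limma adjusted p = 0.898). Cytochrome b5 (Cyb5a), an electron donor, had 132, 167 and 140 FPKM in metastases, against 25.1, 22.4 and 27 in N134-RHAMMB tumours and 33.1, 37.3 and 34.6 in N134 tumours (log2 difference 2.51, SE 0.12, limma adjusted p = 1.18e-07). Alas1, the rate-limiting enzyme of haem synthesis in liver, was 0.47 higher on the log2 scale in metastases than in N134-RHAMMB tumours (SE 0.12, limma adjusted p = 0.0416). These were the 2 of 9 partner genes called higher, with 0 called lower, against 5.04% and 1.52% of all tested genes. At unadjusted p below 0.05 there were 4 of 9, against 2142 of 12854 genes. The list median was 0.07, against -0.06 over all tested genes. The mitochondrial partners Fdx1 and Fdxr were not called.

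Of 16 transcriptional regulators of P450 genes, 13 were tested and 8 were higher in metastases than in N134-RHAMMB tumours, against 5.04% of all tested genes. Of these 8, 7 passed the filter only through the metastases, so they had to be higher there to be tested, and 1 of the 6 that pass on the tumours alone was higher (Cebpa). The constitutive androstane receptor (Nr1i3) had 8.04, 6.34 and 9.37 FPKM in metastases, 0 in all N134-RHAMMB tumours and at most 0.0617 FPKM in N134 tumours. The bile acid receptor (Nr1h4) had 6.01, 4.40 and 6.55 FPKM in metastases, against 0.688, 0.447 and 0.758 in N134-RHAMMB tumours and 1.20, 0.772 and 0.687 in N134 tumours (log2 difference 2.02, SE 0.18, limma adjusted p = 2.69e-05). Ppara, Nr1i2, Ahr, Foxa3, Nr5a2 and Cebpa were the others called higher. Hnf4a, a nuclear receptor of both hepatocytes and islet cells, was not called, with 38.6, 29.3 and 41.4 FPKM in metastases, 36.6, 29.5 and 37.2 in N134-RHAMMB tumours and 36.0, 34.1 and 37.2 in N134 tumours, and Rxra and Arnt were not called either. Among 12 other genes of bile acid synthesis and transport, 9 were higher in metastases than in N134-RHAMMB tumours, again against 5.04% of all tested genes. Of these 9, 6 passed the filter only through the metastases, and the other 3 were Amacr, Hsd3b7 and Scp2. Those that passed only through the metastases include the bile acid ligase Slc27a5, with 15.2, 22.2 and 20.1 FPKM in metastases and at most 0.162 FPKM in the tumours, and the uptake carrier Slc10a1, with 5.18, 5.79 and 7.19 FPKM in metastases and 0 in every tumour.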

How the data were processed

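Total RNA of 9 mouse tumours was sequenced, and per the labels' protocols it was extracted with a column kit. Per the submitters' processing notes, the tools were STAR 2.5.2, Cufflinks 2.1.1 and bcl2fastq 2.19 and the build GRCm38, and neither the role of each tool nor strand setting or read length is given in the sources used. Per the file headers, the authors deposited FPKM values in 1 table, each with a status word. FPKM is scaled by length and library size, so values depend on the share that other genes take. A value listed at 0 can be a failed estimate, and genes at 0 in a whole group get no fold change.

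Of 22053 rows, 7 with a failed estimate and 102 that repeated a symbol at another locus (the locus with the higher mean was kept) were left out, and no member was among them. Groups were compared with limma 3.58.1 in R 4.3.3 on log2(FPKM + 1), in 1 model over all 9 libraries and the 12854 genes that reached 1 FPKM in 3 or more libraries, with a prior variance that follows intensity. Tests were 2-sided, p-values were adjusted by Benjamini-Hochberg over all these genes and called below 0.05, and every log2 difference is on this scale, which understates low genes. The model was tested on simulated data. The labels do not say that the samples of a group came from separate animals, so p-values reflect only how these samples varied, possibly for technical reasons. Depth was estimated from the FPKM of single fragments and sets the floor of each value. Gene coordinates follow the table (GRCm38), starts raised by 1. Open reading frames were taken from GENCODE M21 transcripts of that build, since no protein table was used, and promoters from RefSeq on GRCm38.p6. Figures and tables were made in Python 3.11.15.

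The members and the gene lists were chosen with earlier results of these data known. Named are all bile acid, steroid, retinoid, vitamin D and sex-biased members, members with a mean of 1 FPKM in a tumour group, the 20 called members with the largest change in each comparison, the top 3 of each subfamily in families 1 to 4, and up to 4 genes of other lists. Alternatives were a pseudocount of 0.1, other filters, scalings and variance models, library weights, the 2 groups alone, a replicate block, summed loci, a minimum change and each library left out. Some genes of the regulator list are not reported here.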

Additional observations from a re-analysis of the deposited data

How the results depend on the processing

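The count of members higher in metastases than in N134-RHAMMB tumours was 25, and it was 3 when genes were filtered on a mean of 1 FPKM over the 6 subcutaneous tumours, which leaves 14 members to test. The same filter gave 5 in place of 27 against N134 tumours. Library weights gave 27 higher and 1 lower member in metastases against N134-RHAMMB tumours (25 and 0 without weights), with lower calls over all genes at 936 in place of 195, and 2 higher and 1 lower in N134-RHAMMB against N134 tumours, where the count was 0 and calls over all genes went up to 1528 higher and 1101 lower, in place of 10 and 15. In that last comparison the 2 groups alone gave 1 higher, and leaving out 1 library at a time gave 0 to 2, with 2 only without metastasis 2. The single lower member in metastases against N134 tumours became 2 with quantile normalization, 2 with no intensity trend and 0 with a minimum log2 change of 1. The cause of these shifts was not tested. Among members that an alternative still tested, 7 calls were lost and 11 gained, 0 called values changed sign, and all calls lost came with the minimum change. Called members that the filter on the 6 subcutaneous tumours left untested are not in that count. Leaving out N134-RHAMMB tumours 2 and 4 together was chosen after seeing the data and changed no call of a member. Deviations from the group mean correlated at -0.0027 to 0.102 between samples with the same number, and at -0.1945 to 0.1497 between other samples. With 3 samples a group, such weak values cannot decide whether the numbers pair the samples. A replicate block gave 25 higher and 0 lower, 0 and 0, and 27 higher and 1 lower in the 3 comparisons. At 0.0271 to 0.0347 FPKM for 1 fragment in 2 kb, values of members under 1 FPKM rest on few fragments, and 3 libraries a group limit what the tests can call.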
